A study of Mus musculus with 17 samples.

Results

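The germline genes Tex19.1, Tex101, Tex11, Tex14, Tex15, Slc25a31, Brdt, Taf7l, Sohlh2 and Dpep3 were followed as a named list of genes that are kept silent in somatic cells by methylation of their promoters. They were 10 of the 23980 genes listed in the expression tables, and all 10 passed the filter on low counts at both stages. Poly(A) RNA was sequenced from C57BL6/J mice at 2 stages. Leptotene/zygotene (L/Z) spermatocytes, the cells that enter meiotic prophase, were sorted by FACS from mice of 3 to 4 weeks that were wild type (WT), Pld6 KO or Dnmt3l KO, with 2 libraries in each group. Whole testes at day 0 (P0) came from WT mice (2 libraries), Pld6 KO mice (4 libraries), Dnmt3l KO mice (2 libraries) and mice that lacked both genes (DKO, 3 libraries). Both mutations were constitutive, so that somatic cells of the P0 testes carried them too. DNA methylation was not analysed here, and the name of the list rests on what is known of these genes in somatic cells.

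In mammals, cytosine methylation in a CpG-rich promoter keeps the gene silent, and many genes of germ cells carry such methylation in somatic tissues. Male germ cells erase most DNA methylation in the fetal gonad and lay down a new pattern in prospermatogonia before birth. Dnmt3l is the catalytically inactive partner of the de novo methyltransferases, and Pld6, also called MitoPLD or Zucchini, acts in the production of the piRNAs that direct methylation to retrotransposons. The comparisons asked whether the germline genes were expressed at other levels in germ cells that developed without either protein.

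The promoters are given first because the list is defined by them. RefSeq (GRCm38.p6, the build that is also called mm10) held a promoter entry, 250 bases before to 50 bases after a start site, for 8 of the 10 genes. Tex11 and Tex15 had no entry in that table. The 8 windows held 12 to 23 CpG sites, with a median of 18, whereas the median over all 32851 promoter windows of the table was 7. Brdt held the most (23), followed by Slc25a31 (22), Tex14 (20), Tex101 (19), Taf7l and Sohlh2 (17 each) and Tex19.1 (16), and Dpep3 held the fewest (12). Of all windows, 21.5% held at least as many CpG sites as Brdt, and 39.6% at least as many as Dpep3. Relative to base composition, the CpG frequency was highest in Taf7l (observed over expected 1.03) and lowest in Dpep3 (0.462), against a median of 0.384 over all windows.

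The bases of the window that lie upstream of the annotated gene are shown for 4 members, which were those whose counts differed between Dnmt3l KO and Pld6 KO spermatocytes at an unadjusted p under 0.05. They were chosen for display from these values. Capitals mark each CpG. Brdt is shown at chr5:107330944-107331115 (plus strand), Taf7l at chrX:134476506-134476740 (minus strand), Tex101 at chr7:24672051-24672300 (minus strand) and Dpep3 at chr8:105979420-105979669 (minus strand), each 5′ to 3′ along the gene.
Brdt: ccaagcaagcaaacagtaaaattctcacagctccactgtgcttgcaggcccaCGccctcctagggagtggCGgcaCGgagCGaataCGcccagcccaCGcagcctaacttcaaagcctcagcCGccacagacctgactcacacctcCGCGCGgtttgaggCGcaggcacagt
Taf7l: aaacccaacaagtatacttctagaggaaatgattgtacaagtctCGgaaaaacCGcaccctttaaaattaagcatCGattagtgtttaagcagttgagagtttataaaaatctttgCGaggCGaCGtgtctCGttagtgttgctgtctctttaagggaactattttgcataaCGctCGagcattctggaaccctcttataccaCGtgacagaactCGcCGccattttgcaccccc
Tex101: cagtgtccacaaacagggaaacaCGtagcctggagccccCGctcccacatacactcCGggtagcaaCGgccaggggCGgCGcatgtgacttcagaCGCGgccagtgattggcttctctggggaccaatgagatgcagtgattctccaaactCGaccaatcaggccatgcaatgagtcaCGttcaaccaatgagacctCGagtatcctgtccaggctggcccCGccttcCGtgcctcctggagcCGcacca
Dpep3: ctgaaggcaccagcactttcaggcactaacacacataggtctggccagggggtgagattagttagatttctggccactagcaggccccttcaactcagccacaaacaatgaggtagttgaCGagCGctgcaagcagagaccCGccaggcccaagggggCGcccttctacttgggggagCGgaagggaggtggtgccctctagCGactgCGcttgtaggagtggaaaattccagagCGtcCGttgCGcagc

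CpG sites ran through the whole stretch in Tex101, whereas in Dpep3 they lay toward the gene. The 8 windows of 300 bases were also searched for 2 motifs. CACGTG, a palindrome that reads the same on both strands, is the E-box letters bound by many basic helix-loop-helix factors. It was in 3 members, namely Slc25a31 (93 bases upstream of the start site), Brdt (78 bases) and Taf7l (49 bases), and in 7.15% of all windows. The Brdt match lies inside the annotated gene, which begins before the start site of its window, so it is not in the stretch shown above. TCCCGC, which resembles the core of E2F sites, was sought on both strands and was in 3 members, Tex19.1 (33 bases upstream), Tex14 (111 bases upstream) and Slc25a31 (20 bases downstream), and in 19.98% of all windows. The motifs do not overlap each other in letters, and a match describes only the letters in the window. Both motifs hold a CpG, and the 8 windows were richer in CpG sites than the median window. The shares over all windows are therefore not a like background for these promoters.

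The libraries held 5194238 to 14578341 estimated fragments in L/Z spermatocytes and 9900346 to 23498968 in P0 testes. Pld6 had 0 counts in both L/Z Pld6 KO libraries and in all DKO libraries and 0 to 2 in P0 Pld6 KO, and Dnmt3l had at most 3 counts in every Dnmt3l KO and DKO library. In WT libraries Pld6 had 344 and 352 counts in L/Z spermatocytes and 57 and 40 in P0 testes, and Dnmt3l 19 and 11, and 53 and 72, so that Dnmt3l was a weak check of the L/Z labels. Rn45s, the ribosomal RNA precursor, took 8.27% of the counts in L/Z WT replicate 1, 8.06% in L/Z Pld6 KO replicate 1 and 4.43% in P0 DKO replicate 1, and under 1% in the other 14 libraries. Markers of L/Z spermatocytes were detected in every L/Z library, together with markers of spermatogonia and Sertoli cells, the somatic nurse cells of the tubule. The P0 testes held markers of Sertoli, Leydig, peritubular and blood cells in every library, so that the P0 values are those of a mixed tissue. In bulk samples such as these, fewer cells of a type and less RNA per cell cannot be told apart.

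In WT L/Z spermatocytes the 10 genes spanned levels from 30.7 to 860 FPKM (a fragment count divided by transcript length and by library size, as the mean of 2 libraries). Tex101, a glycoprotein anchored at the germ cell surface, was the highest at 860 FPKM. Taf7l, the germ cell relative of the general transcription factor subunit TAF7, followed at 341 FPKM, and Dpep3, a membrane-bound dipeptidase that binds TEX101, at 184 FPKM. Slc25a31, the ADP/ATP carrier of germ cell mitochondria, stood at 132 FPKM, and Tex15, which acts in meiotic recombination and in retrotransposon silencing, at 126 FPKM. Tex19.1, a repressor of retrotransposons, stood at 121 FPKM, and Tex11, an X-linked protein of meiotic crossover formation, at 110 FPKM. Tex14, which is needed for the bridges between germ cells, had 61.8 FPKM, Sohlh2, a transcription factor of spermatogonia, 50.4 FPKM, and Brdt, a testis bromodomain protein that binds acetylated histones, 30.7 FPKM. Neighbours from Dpep3 through Slc25a31 and Tex15 to Tex19.1 overlapped in their libraries, so that their order was not resolved.

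In WT P0 testes the same genes lay between 2.20 and 14.9 FPKM. The order was Tex19.1 (14.9), Taf7l (12.98), Tex101 (11.8), Tex15 (10.4), Slc25a31 (9.78), Brdt (4.27), Sohlh2 (4.12), Tex14 (3.79), Dpep3 (2.64) and Tex11 (2.20), all in FPKM. Tex19.1 and Taf7l, Taf7l and Tex101, Tex15 and Slc25a31, Brdt and Sohlh2, Sohlh2 and Tex14, and Dpep3 and Tex11 overlapped. The tables of the 2 stages were made separately from different kinds of sample and read, so that levels were not tested between stages.

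**Figure D1:**
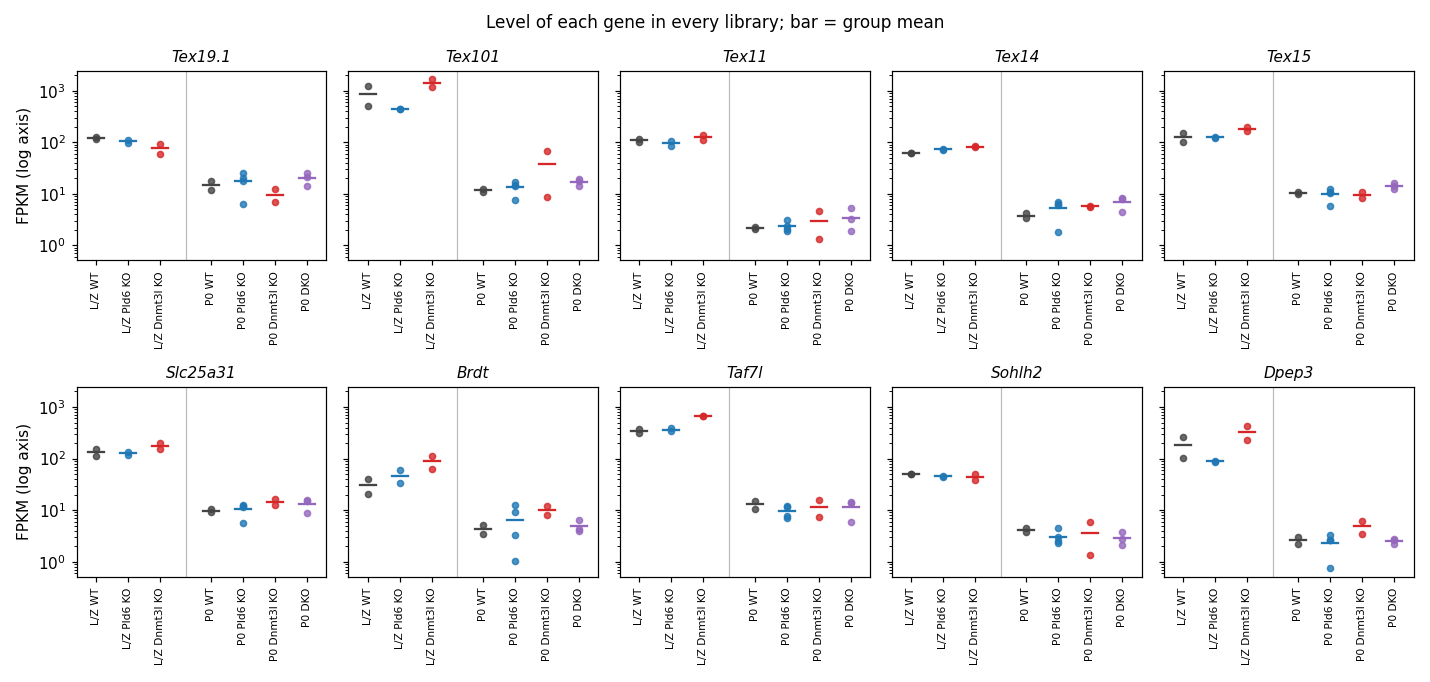
FPKM (log axis) of each of the 10 genes in every library, with L/Z spermatocytes left and P0 testes right of the grey line in each panel; a point is a library and a bar is the mean of a group. In L/Z spermatocytes 8 of the 10 genes have their highest group mean in Dnmt3l KO, Tex19.1 and Sohlh2 being the exceptions, and Tex101 in P0 Dnmt3l KO consists of 1 high and 1 low library.

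The effect of Dnmt3l loss on the germline genes in L/Z spermatocytes was examined first. A gene was called when its false discovery rate (FDR) in edgeR's quasi-likelihood test was below 0.05 and the change was over 2-fold, and values are given as CPM, the counts of a gene scaled to the size of its library. Brdt was the only member called, 3.27-fold higher in Dnmt3l KO than in WT. Its CPM values were 58.9 and 127 in WT and 397 and 211 in Dnmt3l KO, so that both mutant libraries lay above both WT libraries. The log2 fold change was +1.71 (SE 0.416, n = 2 per group, edgeR FDR 0.0352). The share of members called, 1 of 10, stood beside 5.47% of all 14662 genes tested, of which 570 were higher and 232 lower in Dnmt3l KO, and those 802 calls fell to 149 without WT replicate 1 and to 1 without Dnmt3l KO replicate 1. Without WT replicate 1 or without either Dnmt3l KO library Brdt was no longer called, and its FDR in DESeq2 was 0.0600.

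Taf7l, the other member that passed the FDR, had 549 and 638 CPM in WT and 1145 and 1154 CPM in Dnmt3l KO, with no overlap. The log2 fold change was +0.95 (SE 0.233, edgeR FDR 0.0354), a 1.94-fold difference that stayed under the fold threshold. Its FDR was 0.000146 in DESeq2, and in edgeR 0.0239 with a replicate block and 0.0436 with a factor for libraries rich in Rn45s, all under 2-fold. It was 0.0602 in edgeR with the 2 groups fitted alone, and 0.0999 and 0.0947 with limma on log2(FPKM + 1) and log2(FPKM + 0.1). Without WT replicate 1 or without either Dnmt3l KO library Taf7l no longer passed the FDR. Its estimate stayed between +0.85 and +1.07 over the 14 settings. Tex101 had 431 and 1042 CPM in WT and 1394 and 1029 CPM in Dnmt3l KO, and the groups overlapped (log2 fold change +0.72, SE 0.358, edgeR FDR 0.223). Dpep3 had 151 and 395 CPM in WT and 628 and 345 CPM in Dnmt3l KO, also with overlap (+0.83, SE 0.397, edgeR FDR 0.206). For both genes, WT replicate 1, a library rich in Rn45s, held less than WT replicate 2, and their estimates depended on which library was left out. Without WT replicate 2 the log2 fold changes were +1.496 (Tex101) and +1.68 (Dpep3). In the same order they were +0.22 and +0.30 without WT replicate 1, and +0.47 and +0.33 without Dnmt3l KO replicate 1.

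None of the other 6 members was called. Tex15 had 1238 and 836 CPM in WT and 1594 and 1359 CPM in Dnmt3l KO (log2 fold change +0.51, edgeR FDR 0.243), and Slc25a31 had 217 and 291 against 292 and 386 CPM (+0.42, FDR 0.286). Tex14 had 279 and 288 CPM in WT and 374 in both Dnmt3l KO libraries (+0.40, edgeR FDR 0.231). Tex11 overlapped between the groups, with 317 and 357 CPM in WT and 328 and 435 CPM in Dnmt3l KO (+0.18, edgeR FDR 0.649). Tex19.1 and Sohlh2 were the members with a negative estimate. Tex19.1 had 192 and 183 CPM in WT and 88.8 and 147 CPM in Dnmt3l KO (-0.66, SE 0.248, edgeR FDR 0.121), and Sohlh2 had 109 and 108 against 81.4 and 108 CPM (-0.19, edgeR FDR 0.590). The groups did not overlap for Tex15, Slc25a31, Tex14 and Tex19.1.

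The median of the members was +0.46 on the log2 scale, with 8 of 10 estimates positive, and the median of all genes tested was -0.04. Without WT replicate 1 the members' median was +0.26. The libraries of the groups did not overlap for 6 of 10 members, 5 higher and 1 lower in Dnmt3l KO, beside 55.7% of all genes tested in either direction. Summed over the members, the Dnmt3l KO libraries held 5550 to 6323 CPM and the WT libraries 3541 to 4265 CPM. Few genes made up most of these sums. In Dnmt3l KO replicate 1, Tex15, Tex101 and Taf7l held 1594, 1394 and 1145 of the 6323 CPM, and Tex101 overlapped between the groups.

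Marker genes moved in the same libraries. Of 10 L/Z spermatocyte markers, 4 were called higher in Dnmt3l KO, namely Meiob (+2.17), Prdm9 (+1.88), Dmc1 (+1.35) and Sycp2 (+1.34 on the log2 scale), which act in meiotic recombination or in the chromosome axis. Without WT replicate 1 the calls of Meiob (edgeR FDR 0.0846), Dmc1 (FDR 0.121) and Sycp2 (FDR 0.169) were lost, without Dnmt3l KO replicate 1 all 4 were, and without Dnmt3l KO replicate 2 only Prdm9 was still called. In these libraries the sum of the list was 3253 to 3788 CPM in Dnmt3l KO against 1106 to 1937 CPM in WT. Spermatogonia markers summed to 905 to 1574 CPM in Dnmt3l KO and 1823 to 1857 CPM in WT, with 0 of 8 called and a median of -0.86. Sertoli cell markers summed to 113 to 393 CPM against 417 to 636 CPM, with 0 of 9 called and a median of -1.24. None of the prospermatogonia, Leydig, peritubular or blood cell markers was called. Of the late germ cell markers, Piwil1, a PIWI protein of pachytene cells, was called lower (-2.29), but not without Dnmt3l KO replicate 1 (edgeR FDR 0.0988). The part of these cell type differences in the result for the members was not tested.

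**Figure D2:**
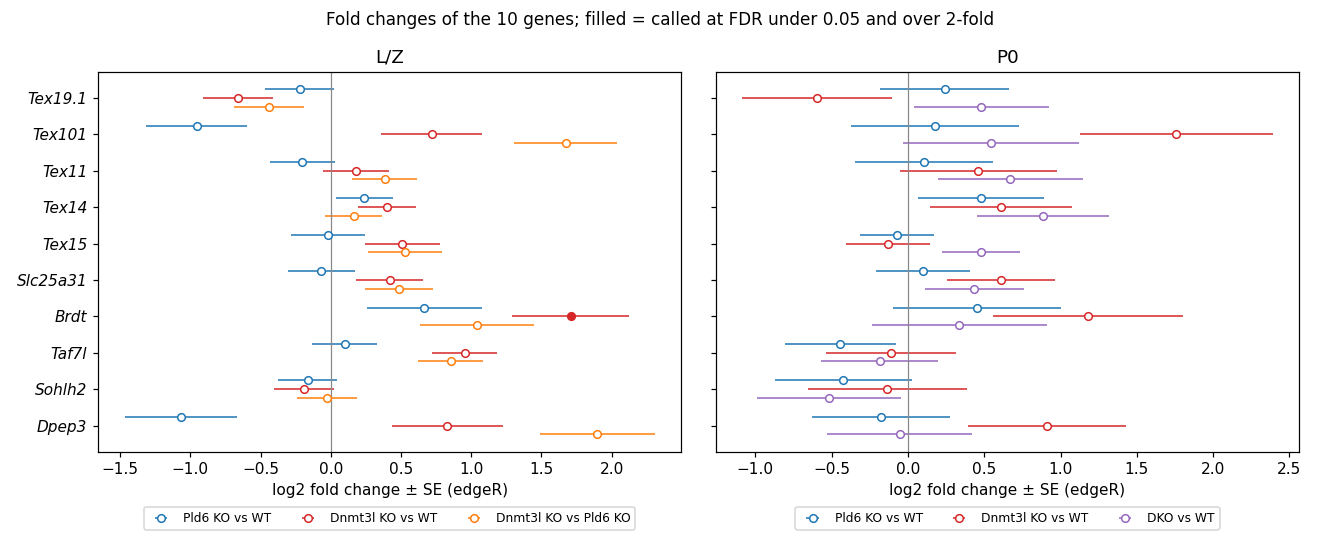
Log2 fold change of each of the 10 genes with its standard error from edgeR, for 3 comparisons in L/Z spermatocytes (left) and 3 comparisons with WT in P0 testes (right); a filled point was called. Brdt in L/Z Dnmt3l KO against WT (+1.71) is the only filled point. In the left panel Tex101 and Dpep3 lie lowest in Pld6 KO against WT and highest in Dnmt3l KO against Pld6 KO.

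In Pld6 KO spermatocytes, by contrast with WT, none of the 10 genes was called by edgeR or DESeq2 (2, Tex101 and Dpep3, had an unadjusted p under 0.05), and 33 genes (0.225%) were called among all tested, a number that ran from 7 (without WT replicate 2) to 74 (without Pld6 KO replicate 1) with a library left out. The median of the members was -0.12, with 3 of 10 estimates positive, and the groups did not overlap for 5 members, 1 higher and 4 lower, beside 42.8% of all genes. Tex101 had 384 and 376 CPM and Dpep3 135 and 126 CPM in Pld6 KO. Both Pld6 KO libraries lay below both WT libraries for each gene, close to WT replicate 1 and far below WT replicate 2. The log2 fold changes were -0.95 for Tex101 (SE 0.360, edgeR FDR 0.476) and -1.07 for Dpep3 (SE 0.400, edgeR FDR 0.474). Brdt was 101 and 193 CPM in Pld6 KO, overlapping WT (+0.67, SE 0.407, edgeR FDR 0.629). The other 7 members had log2 fold changes between -0.22 (Tex19.1) and +0.24 (Tex14).

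The 2 mutants were then compared directly, since the comparisons with WT share the WT libraries. Dpep3 was 3.73-fold higher in Dnmt3l KO than in Pld6 KO (log2 fold change +1.90, SE 0.409, edgeR FDR 0.107), and Tex101 was 3.19-fold higher (+1.67, SE 0.367, edgeR FDR 0.112). Neither passed the FDR, although all Dnmt3l KO libraries lay above all Pld6 KO libraries. Taf7l (+0.85, SE 0.232, edgeR FDR 0.144) and Brdt (+1.04, SE 0.408, edgeR FDR 0.229) were likewise without overlap. Only 7 of all genes tested were called (0.0477%) and no member was, whereas 8 members were higher and 1 was lower without overlap, beside 53.1% of all genes. With the 2 groups fitted alone, or without the filter on low counts, Tex101 and Dpep3 were both called. All genes called then numbered 181 and 193, against 7 in the main fit. DESeq2 called Tex101, among 355 genes called in all. Marker genes differed between the 2 mutants too, though none of these lists held a gene called by edgeR. The median was +1.13 for L/Z spermatocyte markers, -0.58 for spermatogonia markers and -1.20 for Sertoli cell markers. The part of these differences in the values of the members was not tested.

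**Figure D3:**
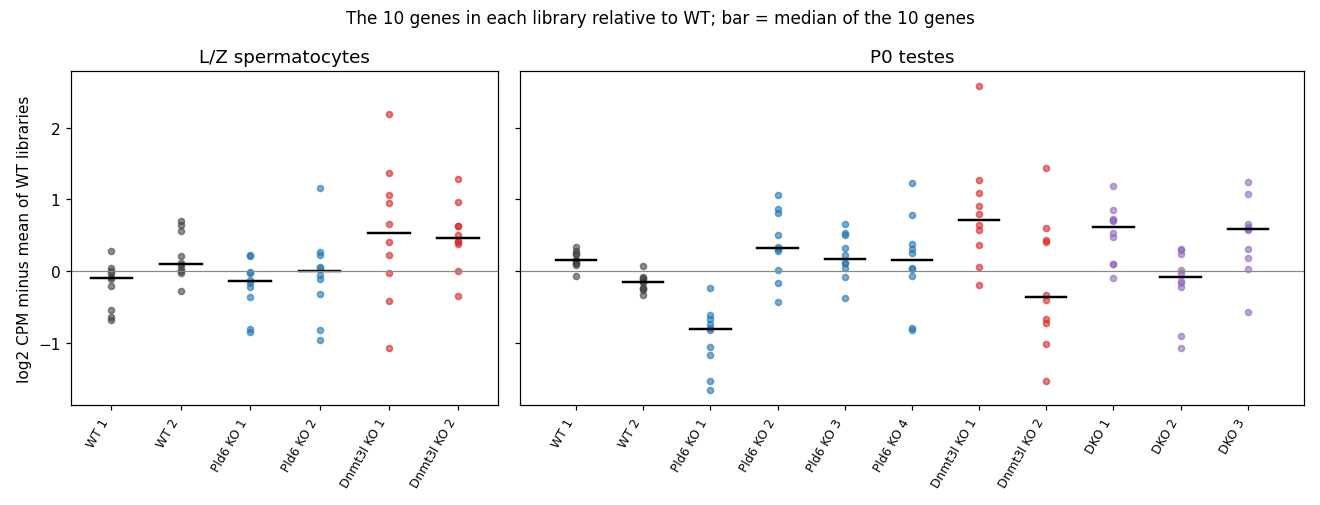
Log2 CPM of the 10 genes in each library minus the mean of the WT libraries of the same stage; a point is a gene, and the bar is the median of the 10 genes. Both L/Z Dnmt3l KO libraries have medians near 0.5 (+0.52 and +0.46), and in P0 testes the libraries of 1 group differ in sign (+0.71 and -0.37 in Dnmt3l KO; -0.81 in Pld6 KO replicate 1 against +0.15 to +0.32 in the others).

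In P0 testes, which were taken when the germ cells are prospermatogonia, no member was called in any mutant against WT. The genes called among all 15901 tested numbered 1 when Pld6 was missing (0.00629%), 0 when Dnmt3l was missing (0%) and 2 in the double mutant (0.0126%). Dnmt3l itself was thus not called in Dnmt3l KO, where the smallest edgeR FDR of any gene was 0.256. Pld6 was not called in Pld6 KO either, since the 1 called gene was higher there. A test that missed the deleted genes cannot show that the members were unchanged. For Dnmt3l KO, 2056 genes had an unadjusted p under 0.05, 1 member among them (Tex101), and DESeq2 called 71 genes and no member. Tex101 was 64.2 and 7.98 CPM in Dnmt3l KO and 11.5 and 9.82 CPM in WT, so that 1 mutant library lay far above and the other below both WT libraries (log2 fold change +1.76, SE 0.631, edgeR FDR 0.320). The high library, replicate 1, also held 114 CPM of late germ cell markers, against 5.78 to 17.01 CPM in the other 10 P0 libraries. Without it the estimate for Tex101 was -0.42 (edgeR FDR 0.795), and without the other Dnmt3l KO library it was +2.57 (edgeR FDR 0.00722).

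Brdt was 26.6 and 38.6 CPM in P0 Dnmt3l KO and 16.7 and 12.01 CPM in WT, without overlap (log2 fold change +1.18, SE 0.623, edgeR FDR 0.429). Its estimate was +1.42 without Dnmt3l KO replicate 1. Dpep3, at 9.82 and 5.47 CPM against 4.76 and 3.36 CPM, also did not overlap (+0.91, SE 0.515, edgeR FDR 0.458), and neither did Tex14, at 27.4 and 26.6 against 19.6 and 15.8 CPM, nor Slc25a31, at 33.5 and 25.4 against 20.7 and 17.9 CPM (both +0.61). These 4 of 10 members stood beside 49.6% of all genes without overlap in either direction. Taf7l, which passed the FDR but not the fold threshold in L/Z spermatocytes, was 29.5 and 13.8 CPM in P0 Dnmt3l KO and 27.7 and 19.0 CPM in WT (-0.11, edgeR FDR 0.925). The median of the members was +0.54 and became -0.38 without Dnmt3l KO replicate 1.

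In P0 Pld6 KO testes the largest estimates were Tex14 (+0.48) and Brdt (+0.45) upward and Taf7l (-0.44) and Sohlh2 (-0.42) downward, with edgeR FDR values of 0.970 or above. Brdt ranged from 4.79 to 33.5 CPM over the 4 Pld6 KO libraries. Replicate 1 was below the WT mean for all 10 members, and for 8 of them it was the lowest of its group. The median was -0.81 in that library and +0.15 to +0.32 in the other 3.

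The double mutant was compared with WT and with each single mutant. Against WT the members' median was +0.46, with Tex14 highest at 40.3, 20.7 and 37.1 CPM (log2 fold change +0.88, SE 0.432, edgeR FDR 0.640). Against Pld6 KO no gene tested was called (0%; 957 at an unadjusted p under 0.05, and 6 called by DESeq2), and Tex15 came nearest among the members. Its values were 121, 106 and 137 CPM in DKO and 49.3 to 106 CPM in Pld6 KO (+0.55, SE 0.209, edgeR FDR 0.790). Against Dnmt3l KO 12 genes were called (0.0755%) and no member was. Tex19.1 was 41.7, 23.3 and 34.8 CPM in DKO and 20.2 and 11.4 CPM in Dnmt3l KO (+1.07, SE 0.457, edgeR FDR 0.249). Tex101 was 17.6, 13.2 and 15.8 CPM in DKO, and its estimate of -1.22 against Dnmt3l KO (edgeR FDR 0.268) rested on the high Dnmt3l KO library. Whether the double mutant departed from the sum of the single mutants on the log2 scale was tested as an interaction, and 0 genes passed the FDR of 0.05 (0%; 1740 at an unadjusted p under 0.05, and 54 by DESeq2). Among the members, estimates ran from -1.39 (Tex101) to +0.83 (Tex19.1), with edgeR FDR values of 0.480 or above.

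The effect of each mutation was also compared between stages. For Pld6 KO, 2 genes passed the FDR of 0.05 (0.0121% of 16547), and for Dnmt3l KO 110 genes (0.665%), and no member did in either test. Taf7l was the nearest, with a Dnmt3l KO effect larger by 1.03 in L/Z spermatocytes than in P0 testes on the log2 scale (SE 0.456, edgeR FDR 0.266). For Brdt, which was called at one stage and not at the other, this difference was +0.49 (SE 0.897, edgeR FDR 0.826). A difference between the stages was not shown for any member, and the standard errors of the Dnmt3l KO effects at P0, 0.277 to 0.631 on the log2 scale, were wider than the 0.203 to 0.416 in L/Z spermatocytes.

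The other genes of the same class were examined as a list of 15 germline genes silenced by promoter methylation in somatic cells, such as Dazl, Ddx4 and Mael. In L/Z Dnmt3l KO against WT, 3 of the 15 were called higher and 0 lower, with a median of +0.67. The 3 were Hormad1, a chromosome axis protein (+1.66, edgeR FDR 0.0317), Sycp1, the transverse filament of the synaptonemal complex (+1.30, edgeR FDR 0.0339), and Smc1b, a meiotic cohesin (+1.09, edgeR FDR 0.0447). All 3 calls were lost without WT replicate 1 (edgeR FDR 0.143 to 0.214), without either Dnmt3l KO library and with limma on FPKM, and those of Sycp1 (+0.99) and Smc1b (+0.86) were lost with a factor for libraries rich in Rn45s. Hormad1 was 176 and 385 CPM in WT and 779 and 990 CPM in Dnmt3l KO. None of the 15 was called in Pld6 KO spermatocytes, where Tuba3b had the smallest FDR (0.601), or in any P0 comparison. Against WT at P0, Sycp1 had the smallest FDR of the list in each mutant, 0.963 for Pld6 KO, 0.256 for Dnmt3l KO and 0.435 for DKO by edgeR. The median of the 15 in P0 Dnmt3l KO was +0.93, with 15 of 15 estimates positive, and this comparison includes the library with 114 CPM of late germ cell markers.

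Relatives and partners of the members formed a list of 13 genes, of which 11 were tested in L/Z spermatocytes and 12 in P0 testes. Sohlh1, the partner of SOHLH2, was called lower in L/Z Dnmt3l KO (-1.11, edgeR FDR 0.0291), and Sohlh2 itself was not called. The call of Sohlh1 was lost with the Rn45s factor (-0.99, under 2-fold), without WT replicate 1 (-0.90, edgeR FDR 0.138) and without Dnmt3l KO replicate 1 (-0.86, edgeR FDR 0.189). Ly6k, which binds TEX101, was the relative with the lowest FDR between Dnmt3l KO and Pld6 KO (+2.20, edgeR FDR 0.0623), beside +1.67 for Tex101 and +1.90 for Dpep3.

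**Figure D4:**
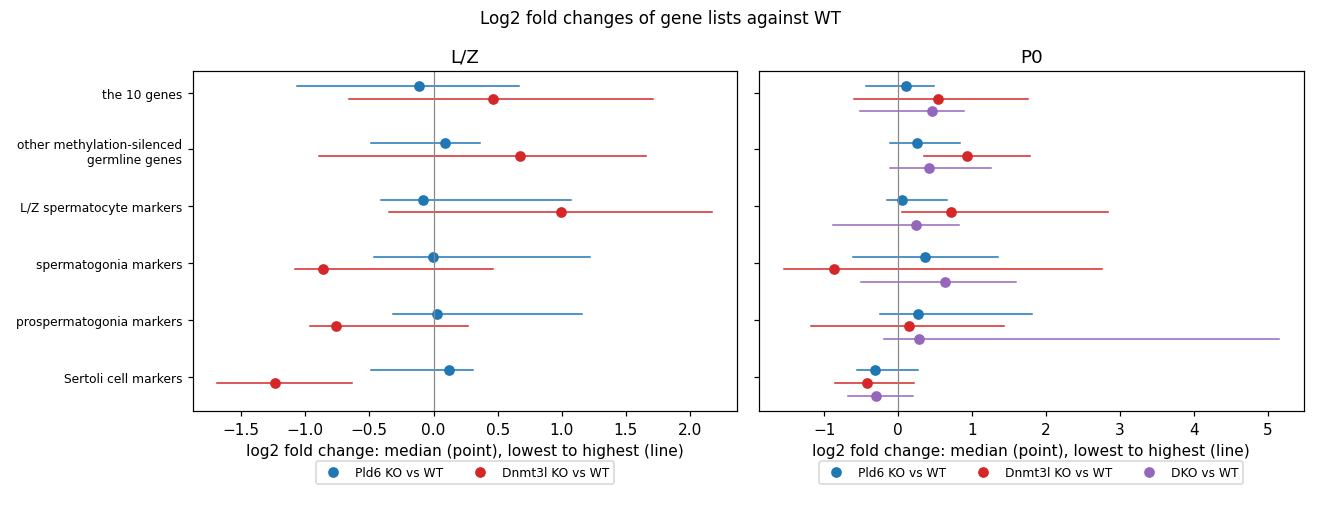
Median (point) and range (line) of the log2 fold changes of the genes in 6 lists against WT, by mutant and stage. In L/Z Dnmt3l KO the members (median +0.46) and the other methylation-silenced germline genes (+0.67) lie on the same side as the L/Z spermatocyte markers (+1.00), while spermatogonia (-0.86) and Sertoli cell markers (-1.24) lie on the other.

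The genes whose pattern was most like that of each member were found by the root mean square difference of log2 CPM, each gene centred over the 17 libraries, among 13219 candidate genes. Slc25a31 was closest to Ddx4 (0.203), the germ cell RNA helicase, and Tex19.1 to Nlrp4c (0.231). Tex11 and Taf7l both had M1ap, a gene needed for male meiosis, as the nearest gene (0.279 and 0.335). Tex14 was nearest to Ccdc92 (0.256), Tex15 to Scml2 (0.267) and Brdt to Akap3 (0.317). Sohlh2 was nearest to Uba1y (0.351), Dpep3 to Gal3st1 (0.450) and Tex101 to Fmr1nb (0.456). Among the members themselves, Slc25a31 and Tex14 were the closest pair (0.268) and Tex19.1 and Dpep3 the farthest (1.79). The distances include the difference between the stages, whose size was not the same for all these genes. In WT, Tex19.1 had a mean of 23.8 CPM at P0 and 187 CPM in L/Z spermatocytes, and Dpep3 4.06 and 273 CPM. The stages differ in sample and read type, so the distances do not describe the mutations alone.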

How the data were processed

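Poly(A) RNA-seq of 6 L/Z spermatocyte and 11 P0 testis libraries was analysed. Stranded TruSeq libraries were read as single ends of 50 bp (L/Z) or paired ends of 100 bp (P0). The authors mapped the reads with TopHat to mm10 and ran Cuffdiff once per stage, and versions are not given in the sources used here. The deposited tables hold estimated counts of fragments per gene and replicate, not rounded by the authors, and FPKM values that the authors normalized within each stage. Cuffdiff numbers replicates from 0, so table replicate 0 was matched to the lowest labelled replicate of its group. Per-sample columns left unmapped numbered 0. The labels call the samples biological replicates.

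Estimated counts were rounded and tested with edgeR 4.0.16 (R 4.3.3; filterByExpr, TMM, quasi-likelihood), with all groups of a stage in 1 fit and p-values adjusted over all genes tested; SE is the absolute log2 fold change over the root of F. Calls needed FDR below 0.05 and over 2-fold; interactions needed the FDR alone. Genes with a failed Cuffdiff status (6 in L/Z, 2 in P0) were left out. Replicate pairs differed beyond sampling noise in every group. Alternatives used DESeq2 1.42.0, limma 3.58.1 on log2(FPKM + 1) and log2(FPKM + 0.1), other filters, a replicate block, an Rn45s factor and libraries left out.

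The members, lists and tests were chosen with earlier results of these data known. Named genes were all members, the genes that check the labels, up to 3 called genes per list and comparison with the largest change (or the gene with the smallest FDR), and the nearest gene in pattern; Sycp2 was named after its values were seen. Genes with near-identical copies, such as Tex19.1 and Tuba3b, may share reads. Promoter windows came from RefSeq GRCm38.p6, matched by symbol for 8 of 10 members.
One called gene of the list of relatives is not reported here.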

Additional observations from a re-analysis of the deposited data

Results flagged for a closer look

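Of 21 sets of 4 libraries that were examined for a library far from the others, 2 were marked, both through replicate 1 of P0 Pld6 KO, the only group with 4 libraries. Chance marks about 1 independent set in 20, a rate that cannot be read over these sets because all of them come from the same 4 libraries. The summed level of the 15 other methylation-silenced germline genes was 259 CPM in replicate 1 and 652, 653 and 642 CPM in replicates 2, 3 and 4. The summed level of the prospermatogonia markers was 63.8 CPM in replicate 1 and 174, 176 and 163 CPM in the others. The members were also low in that library, with a median of -0.81 on the log2 scale against the WT mean. None of the 30 tests of a difference in effect, over the 10 members, between stages or between the double and single mutants, passed.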

How the results depend on the processing

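The number of members called was 1 in L/Z Dnmt3l KO against WT. It was 2 with no fold threshold, 0 with the DESeq2 Wald test, and 0 with limma on log2(FPKM + 1) or log2(FPKM + 0.1). With 1 library left out, the log2 fold change of Brdt ran from +1.17 (without Dnmt3l KO replicate 1) to +2.37 (without WT replicate 2). Without WT replicate 2, which leaves 1 WT library, Tex101 (+1.496), Dpep3 (+1.68) and Taf7l (+1.07) were also over the fold threshold. The remaining members were not. In L/Z Dnmt3l KO against Pld6 KO the number of members called rose from 0 to 2 with no filter on low counts and with only the groups compared. It rose to 1 with DESeq2. All genes called rose there from 7 to 193, 181 and 355. In P0 it ranged from 0 to 1 over the left-out libraries for Dnmt3l KO against WT and for DKO against Dnmt3l KO, where Tex101 was called without Dnmt3l KO replicate 2. In the other 7 comparisons no alternative called a member, and no called change of a member turned its sign. Without P0 Dnmt3l KO replicate 1, the members' median turned its sign in several P0 results. It went from +0.54 to -0.38 for Dnmt3l KO against WT and from -0.13 to +0.69 for DKO against Dnmt3l KO. The median departure of the double mutant went from -0.08 to +0.84, and the median stage difference of Dnmt3l KO from -0.10 to +0.57.

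Samples with the same replicate number did not deviate together in every pair (correlations from -0.33 to 0.48), so the numbers were not taken as a pairing. With the replicate block, Brdt stayed called in L/Z Dnmt3l KO (+1.83, edgeR FDR 0.0365), the number of members called was 1 there and 0 elsewhere, and the number of all genes called went from 802 to 912, from 7 to 4 between the L/Z mutants, from 2 to 12 for P0 DKO against WT and from 12 to 0 for P0 DKO against Dnmt3l KO. With a factor for libraries rich in Rn45s, Brdt was +1.30 (edgeR FDR 0.0240). Over all alternatives, the number of all genes called in L/Z Dnmt3l KO against WT ran from 1 (without Dnmt3l KO replicate 1, the library of 5194238 fragments) to 1139, that between the L/Z mutants from 0 to 355, that in L/Z Pld6 KO from 1 to 101 and those in P0 from 0 to 258. At P0 the WT and Dnmt3l KO groups had 2 libraries each, and the lowest member, Dpep3, had 1.16 to 9.82 CPM. The causes of these differences were not tested.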
